A study of Mus musculus with 4 samples.

Results

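Notch signalling passes between neighbouring cells, and 10 of its genes were followed here, found by gene symbol among the 25239 rows of the count table. They are the ligands Jag1 and Dll1, the receptors Notch1, Notch2 and Notch3, the transcriptional repressors Hes1, Hey1, Hey2 and Heyl, and the feedback inhibitor Nrarp. Poly(A) RNA was sequenced from primary mouse chondrocytes, the cells that make cartilage. The 2 cKO libraries came from Tiki2 fl/fl mice that also carry Col2a1-Cre/ERT, a tamoxifen-dependent Cre driven by the Col2a1 promoter and so limited to cells that use it. The 2 control libraries came from Tiki2 fl/fl mice without the Cre, and all 4 cultures received 4-hydroxytamoxifen. Cre and loss of Tiki2 (gene symbol Trabd2b) therefore cannot be told apart, and p-values measure the spread between libraries whose separate origin the labels do not state.

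A ligand on one cell binds a Notch receptor on the next, and the receptor is then cut by an ADAM protease and by gamma-secretase. The freed intracellular part enters the nucleus, joins the DNA-binding protein Rbpj and switches on targets such as the Hes and Hey genes and Nrarp. In growing cartilage the pathway is known to restrain early chondrocyte differentiation and to take part in the passage to hypertrophy.

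Total counts were 76425194 and 78873054 in the cKO libraries and 66750140 and 77285899 in the control libraries. Trabd2b had 22643 and 29473 counts in cKO and 28513 and 31314 in control libraries, so reads of the gene were still abundant in cKO. The counts are per gene, so they do not show whether its transcripts were intact. The log2 fold change of Trabd2b was -0.38 ± 0.11 (SE; edgeR adjusted p = 0.15, DESeq2 adjusted p = 0.0074). It was -0.54 without cKO replicate 2 (edgeR adjusted p = 0.027) and -0.23 without cKO replicate 1 (edgeR adjusted p = 0.13). Control replicate 1 had 112185 counts of the female-specific RNA Xist and 0 of the Y-linked gene Ddx3y, while the other 3 libraries had 36 to 171 Xist counts, so the controls differ in sex. The chondrocyte markers were all detected (10 of 10), with a summed level of 15607 and 11725 CPM in cKO and 26222 and 30668 CPM in control libraries.

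Differences between the genotypes ran in both directions. Notch3 and Jag1 had higher levels and Hey1 a lower level in both cKO libraries than in both control libraries, while Hes1 and Dll1 were nearly level and Hey2, Heyl and Nrarp were at or close to 0 counts. None of these differences passed the edgeR quasi-likelihood test at a Benjamini-Hochberg adjusted p of 0.05 over 15522 genes. In that test 1.30% of all genes were called, 0.393% as higher and 0.908% as lower in cKO, from 61 and 141 genes. Scaled by library size without TMM factors, the same test gave 116 higher and 123 lower. Of the 10 members, 7 had enough counts to be tested, and 4 of the 7 (Notch3, Hey1, Jag1 and Notch2) had an unadjusted edgeR p under 0.05, against 17.2% of all genes. DESeq2, an alternative test, called 3 of the 7 (Notch3, Jag1 and Hey1), and limma-voom called 0. Of the 14017 genes to which DESeq2 gave an adjusted p, it called 8.28%. Because the members were chosen with earlier results of these data known, these shares do not test the list. The median log2 fold change was 0.16 over the 7 members and 0.00 over all genes tested.

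**Figure D1:**
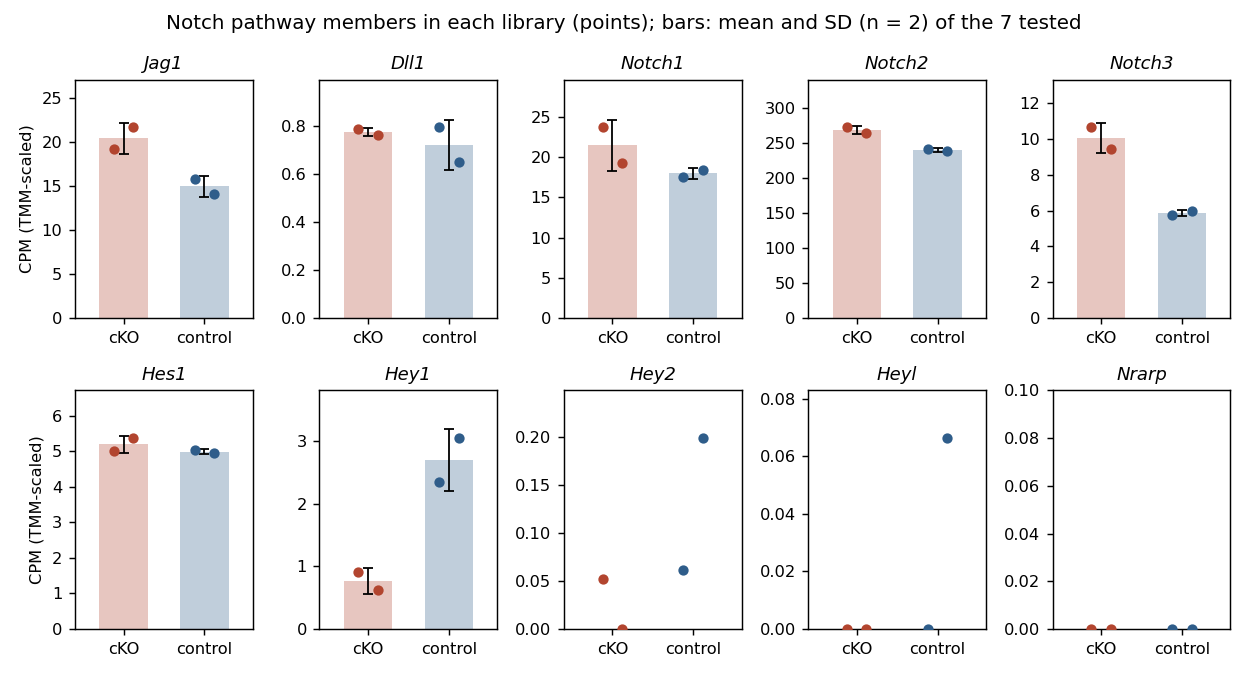
Level of each member in CPM on the TMM-scaled library size (vertical axes, each from 0), with cKO left of control. Points are libraries, and for the 7 members tested bars give the mean and SD (n = 2). The cKO points lie above the control points for Jag1, Notch1, Notch2 and Notch3, below them for Hey1, and all 4 points of Nrarp lie at 0.

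Sequences before the start site are shown for 3 genes. Notch3 and Jag1 are the members with the largest positive log2 fold changes, and Hey2 is the only one of the 7 members with a window in the RefSeq promoter table (GRCm38.p6) that holds the Rbpj-binding heptamer GTGGGAA on either strand. Each run below covers 250 bases before the start and the first 10 transcribed bases, 5′ to 3′ on the gene's strand, here the minus strand for all 3. Capitals mark matches, on either strand, to GTGGGAA, to its core TGGGAA, which lies within it, to the E-box CACGTG bound by Hey proteins, or to the N-box CACNAG bound by Hes proteins. Notch3 lies at chr17:32166881-32167140, Jag1 at chr2:137116511-137116770 and Hey2 at chr10:30842774-30843033.
Notch3: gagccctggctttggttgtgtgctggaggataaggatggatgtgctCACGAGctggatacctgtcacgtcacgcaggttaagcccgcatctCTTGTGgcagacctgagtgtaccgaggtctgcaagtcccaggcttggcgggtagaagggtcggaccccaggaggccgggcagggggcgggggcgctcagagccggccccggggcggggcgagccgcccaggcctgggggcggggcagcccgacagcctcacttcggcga
Jag1: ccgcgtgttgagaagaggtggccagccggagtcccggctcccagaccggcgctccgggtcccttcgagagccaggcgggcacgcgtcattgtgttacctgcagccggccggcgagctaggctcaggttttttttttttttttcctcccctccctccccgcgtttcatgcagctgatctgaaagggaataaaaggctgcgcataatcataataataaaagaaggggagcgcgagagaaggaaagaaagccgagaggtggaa
Hey2: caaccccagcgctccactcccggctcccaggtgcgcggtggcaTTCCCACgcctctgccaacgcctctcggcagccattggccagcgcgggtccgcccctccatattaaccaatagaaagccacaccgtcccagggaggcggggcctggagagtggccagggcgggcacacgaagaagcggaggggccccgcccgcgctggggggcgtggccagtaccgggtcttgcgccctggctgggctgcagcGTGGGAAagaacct

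The Hey2 run held the heptamer at 2 places, starting 207 and 4 bases before the start site, the first on the opposite strand. The Notch3 run held 2 N-boxes and the Jag1 run none of the 4 motifs. Of all 32851 windows of 300 bases in the table, 6.38% held the heptamer, 25.6% the core, 7.15% the E-box and 42.5% the N-box. Of the 7 members with a window, only Nrarp held the E-box, with 1 match. A match describes the letters and says nothing of binding. Hes1, Hey1 and Heyl have no window in the promoter table, so they were not searched.

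Jag1, the ligand that marks many mesenchymal cells and is also a known target of Wnt/beta-catenin signalling, was the more abundant ligand. It lies on mm10 chromosome 2, 137081456 to 137116644 (ENSMUSG00000027276.7). Its counts were 1487 and 1760 in cKO and 1034 and 1066 in control libraries. Scaled by library size and TMM factor these were 19.2 and 21.7 CPM in cKO against 15.8 and 14.1 CPM in control libraries, so both cKO libraries stood above both controls. The mean was 20.4 ± 1.76 CPM in cKO and 14.97 ± 1.18 CPM in control libraries (SD, n = 2 each). The log2 fold change was 0.45 ± 0.11 (SE), 1.36-fold, with a 95% interval from 0.18 to 0.72 and an edgeR adjusted p of 0.12 (unadjusted 0.0062). DESeq2 gave an adjusted p of 0.038.

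Dll1, the ligand of somite and progenitor patterning, was scarce. It had 61 and 62 counts in cKO and 52 and 49 in control libraries, or 0.787 and 0.763 CPM in cKO against 0.795 and 0.650 CPM in control libraries. The groups overlapped. Its log2 fold change of 0.10 had a 95% interval from -1.06 to 1.26, so a log2 difference of 1 either way was not excluded.

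Notch2, the main receptor of skeletal cells, had the highest counts of the 10 genes, 21085 and 21483 in cKO and 15805 and 17964 in control libraries. Its level was 272 and 264 CPM in cKO against 242 and 238 CPM in control libraries. The groups did not overlap, and the difference was small beside that of Notch3. The log2 fold change was 0.16 ± 0.06 (SE), 1.12-fold, with an edgeR adjusted p of 0.22 (unadjusted 0.027).

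Notch3, a receptor best known from vascular smooth muscle and pericytes, had the largest positive log2 fold change of the members (ENSMUSG00000038146.8, mm10 chromosome 17, 32120820 to 32166852). Counts were 825 and 767 in cKO and 377 and 450 in control libraries. Levels were 10.6 and 9.44 CPM in cKO against 5.76 and 5.97 CPM in control libraries, so the lowest cKO library was well above the highest control. Means were 10.04 ± 0.849 CPM in cKO and 5.87 ± 0.144 CPM in control libraries (SD, n = 2 each). The log2 fold change was 0.77 ± 0.15 (SE), 1.71-fold, with a 95% interval from 0.41 to 1.14. The edgeR adjusted p was 0.073 (unadjusted 0.0019) and the DESeq2 adjusted p 0.0023.

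Notch1, the receptor of many progenitor cells, stood between them. It had 1834 and 1561 counts in cKO and 1144 and 1387 in control libraries, or 23.6 and 19.2 CPM in cKO against 17.5 and 18.4 CPM in control libraries. The groups did not overlap, but cKO replicate 2 was close to the controls. The log2 fold change was 0.26 ± 0.12 (SE; edgeR adjusted p = 0.36), and 0.10 without cKO replicate 1.

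Groups of all 3 receptors and of Jag1 did not overlap upward, and those of Hey1 downward, 5 of the 7 members tested. Over all genes tested 49.8% had groups that did not overlap, so such a count says little by itself. With 2 libraries a group an exact two-sided permutation test cannot give a p below 0.333.

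**Figure D2:**
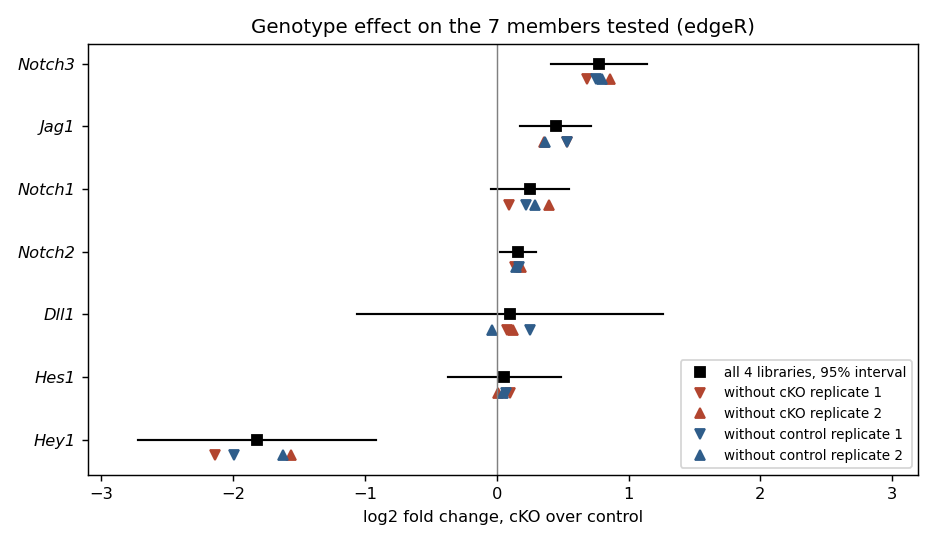
Log2 fold change of cKO over control (horizontal axis) for the 7 members tested, with edgeR 95% intervals from all 4 libraries (black) and the value without each library in turn (triangles). The interval of Notch3 runs from 0.41 to 1.14 and that of Hey1 from -2.72 to -0.92, while those of Notch1, Dll1 and Hes1 cross 0.

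Ratios between members within 1 library do not depend on how libraries are scaled. For every 100 Notch2 counts there were 3.91 and 3.57 Notch3 counts in cKO and 2.39 and 2.51 in control libraries. The matching numbers for Notch1 were 8.70 and 7.27 in cKO and 7.24 and 7.72 in control libraries. Notch3 thus stood higher beside Notch2 in both cKO libraries, and Notch1 beside Notch2 overlapped between the groups.

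Hes1, a repressor switched on by Notch and by other signals, was close to level. Counts were 389 and 436 in cKO and 329 and 373 in control libraries, or 5.02 and 5.36 CPM in cKO against 5.03 and 4.95 CPM in control libraries. The groups overlapped. Its log2 fold change was 0.06 ± 0.18 (SE), with a 95% interval from -0.37 to 0.48 (edgeR adjusted p = 0.91).

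Hey1, a repressor of the same family and a common readout of Notch activity, had the largest difference of the tested members (ENSMUSG00000040289.8, mm10 chromosome 3, 8663359 to 8667256). Its counts were 71 and 50 in cKO and 154 and 230 in control libraries. Levels were 0.916 and 0.615 CPM in cKO against 2.35 and 3.05 CPM in control libraries, with no overlap. The means were 0.765 ± 0.212 CPM in cKO and 2.70 ± 0.492 CPM in control libraries (SD, n = 2 each). The log2 fold change was -1.82 ± 0.37 (SE), 3.53-fold lower in cKO, with a 95% interval from -2.72 to -0.92. The edgeR adjusted p was 0.083 (unadjusted 0.0025) and the DESeq2 adjusted p 0.0014. For every 100 Hes1 counts there were 18.3 and 11.5 Hey1 counts in cKO and 46.8 and 61.7 in control libraries.

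Hey2 and Heyl, related repressors known from heart and vessels, were below the count filter. Hey2 had 4 and 0 counts in cKO and 4 and 15 in control libraries, with most of its reads in control replicate 2. Summed over libraries this was 0.0252 CPM in cKO, with an exact Poisson 95% interval from 0.0069 to 0.0645, and 0.135 CPM in control, from 0.0812 to 0.211. These intervals cover counting error only and leave out the spread between libraries. With that spread, the edgeR fit without a count filter gave Hey2 an unadjusted p of 0.32. Among counts from 1 to 20, between 30.0% and 32.0% were multiples of 4, where even spread gives 25%, so low counts here may not be single reads. Heyl had 0 and 0 counts in cKO and 0 and 5 in control libraries.

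Nrarp, a small ankyrin-repeat protein that blocks the Notch transcription complex, had 0 counts in all 4 libraries. A count of 0 allows up to 3 counts, between 0.0369 and 0.0459 CPM per library. Its single exon block shares 79.4% of its bases with an opposite-strand antisense gene in GENCODE M21, and the strand setting of the counting is not given. All 15 broadly used genes that were looked up had counts above 0, and 48.0% of protein-coding genes with 1 exon block were above 0 in some library, against 79.8% of those with several. Whether annotation bears on the 0 of Nrarp was not tested. Exons of Dll1, Notch1, Notch2 and Notch3 share 20.5%, 9.76%, 5.02% and 6.03% of their bases with other annotated genes, and the counting of such reads is likewise not given.

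Per kilobase of annotated exon, the tested members covered a wide range. Notch2 led with 25.2 and 24.5 CPM per kilobase in cKO and 22.4 and 22.1 in control libraries. Jag1 followed with 3.29 and 3.72 CPM per kilobase in cKO and 2.71 and 2.43 in control libraries, and Hes1 with 2.46 and 2.63 in cKO and 2.47 and 2.43 in control libraries. Jag1 and Hes1 levels overlapped in the controls and were apart in cKO. Notch1 was next with 1.66 and 1.35 CPM per kilobase in cKO and 1.23 and 1.29 in control libraries. Notch3 had 1.32 and 1.17 CPM per kilobase in cKO and 0.713 and 0.738 in control libraries. Hey1 had 0.280 and 0.188 CPM per kilobase in cKO and 0.721 and 0.934 in control libraries, so it overlapped Notch3 in the controls and lay below it in cKO. Dll1 was lowest, at 0.186 and 0.181 CPM per kilobase in cKO and 0.188 and 0.154 in control libraries. Among the 4 receptors, Notch3 made up 4.66% and 4.30% of the summed level per length in cKO and 2.92% and 3.04% in control libraries, and Notch2 between 89.3% and 91.8% in every library. The lengths join all annotated exons of a gene and can overstate the transcript in use.

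**Figure D3:**
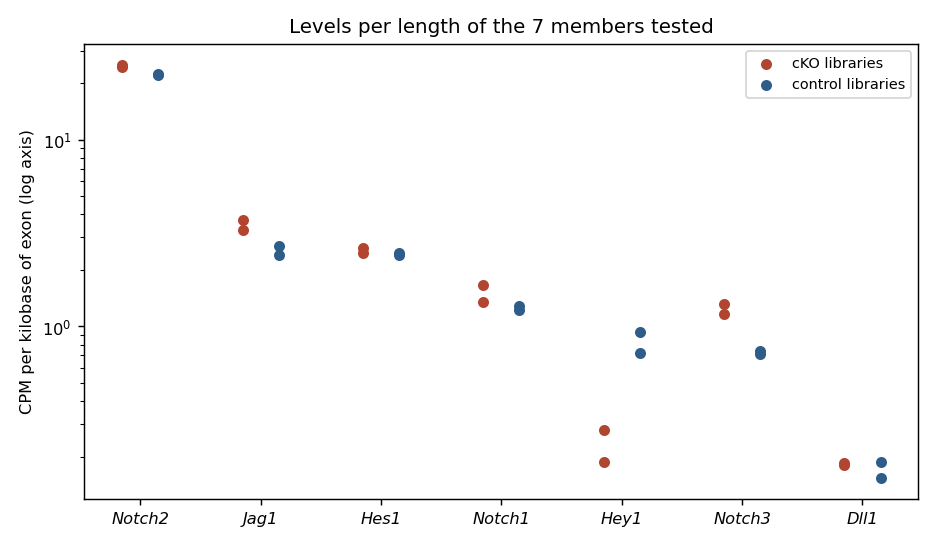
CPM per kilobase of annotated exon (log axis) for the 7 members tested, in order of their control mean, with cKO points left of control points. Notch2 lies above all others in each library, and Hey1 is below Notch3 in both cKO libraries.

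Genes of other cell types were measured beside these levels, since Notch genes are shared by many. In bulk RNA fewer cells of a type and less RNA per cell cannot be told apart. Of 10 mural cell markers, all with counts above 0, 9 were tested, and 6 had a log2 fold change above 0 and 3 below, with a median of 0.41. Pdgfrb was called higher in cKO by edgeR (log2 fold change 0.39, adjusted p = 0.044) and DESeq2. Cnn1 and Mcam were also above the controls in both cKO libraries but were not called. The groups of Rgs5, Abcc9, Kcnj8, Myh11, Acta2 and Des overlapped. Cspg4, which chondrocytes also use, was at -0.71 (edgeR adjusted p = 0.083) and was called lower by DESeq2 (adjusted p = 8.6e-06). The summed level of the list was 1183 and 979.7 CPM in cKO and 1064 and 1135 CPM in control libraries, so the groups overlapped. Acta2 (34.3%), Pdgfrb (33.6%) and Cspg4 (29.7%) made up most of that sum and differed in direction, so it says little of the other markers. Of 10 endothelial markers 9 had counts above 0, and the sums were 29.5 and 25.7 CPM in cKO and 27.8 and 25.6 CPM in control libraries. Erg, which chondrocytes also use, made up 85.5% of that sum. Vwf had 254 and 252 counts in cKO and 155 and 244 in control libraries. Tek had 64 and 41 counts in cKO and 11 and 38 in control libraries. In CPM the groups of Vwf overlapped, while Tek was higher in both cKO libraries by a narrow margin (edgeR adjusted p = 0.58). The defining endothelial genes Pecam1 and Cdh5 had at most 9 and 4 counts in any library, and Emcn had 0 in all.

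Of the 10 chondrocyte markers edgeR called 9 lower and none higher, and DESeq2 called all 10 lower. Of 8 fibroblast markers, all with counts above 0, edgeR called Col1a1 and Col3a1 higher and none lower. DESeq2 called 4 higher and 1 lower, the matrix proteoglycan gene Dcn (log2 fold change -0.24, edgeR adjusted p = 0.083, DESeq2 adjusted p = 0.00031). The fibroblast sums were 9180 and 9899.8 CPM in cKO and 7830 and 7347 CPM in control libraries. Of 8 adipocyte markers, all with counts above 0, edgeR called none, 6 had an unadjusted p under 0.05 and DESeq2 called 5 higher. Their sums were 335 and 545 CPM in cKO and 219.6 and 221 CPM in control libraries. Skeletal muscle markers, 6 of 8 with counts and with Myf5 and Pax7 at 0, summed to 47.0 and 10.9 CPM in cKO and 4.21 and 21.6 CPM in control libraries. The 8 macrophage markers, all with counts above 0 in some library, summed to 23.7 and 25.2 CPM in cKO and 26.6 and 19.6 CPM in control libraries. Cd68 (40.0%) and Cd14 (35.1%) made up most of that sum. Adgre1, Ptprc and C1qa had at most 7, 16 and 12 counts in any library. Of the endothelial, muscle and macrophage markers tested, edgeR and DESeq2 called 0, and 0 had an unadjusted p under 0.05. The part of these cell type markers in the values of Notch3, Jag1 and Hey1 was not tested.

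The rest of the pathway was read from 49 further genes, of which 44 were tested. None passed in either direction by edgeR, and 8 higher and 2 lower had an unadjusted p under 0.05, or 22.7% against 17.2% of all genes. DESeq2 called 2 higher (Furin and Rbpj) and 2 lower (Neurl1b and Hes6). That was 9.76% of those it gave an adjusted p, against 8.28% over all genes given one. The median log2 fold change of the 44 was 0.08, and 31 were above 0 and 13 below. Groups did not overlap for 24 of the 44 (54.5%), against 49.8% of all genes, so these shares were near the background. Values below are log2 fold changes ± SE with edgeR adjusted p.

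Of the other ligands and receptor, Jag2 (-1.19 ± 0.96, adjusted p = 0.59) and Notch4 (-0.02 ± 0.69, adjusted p = 0.99) were tested by edgeR, both at under 1 CPM in each group mean. Jag2 was at -3.15 without cKO replicate 1 (edgeR adjusted p = 0.23) and -0.39 without cKO replicate 2. Dll4, the main endothelial ligand, had 8 and 0 counts in cKO and 12 and 0 in control libraries. Dll3 had 0 and 23 counts in cKO and 0 and 0 in control libraries.

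Among 10 genes that process the receptor, 7 were above 0 and 3 below. Furin, which cuts the receptor on its way to the surface, had 18215 and 19865 counts in cKO and 12899 and 14713 in control libraries. Its log2 fold change was 0.29 ± 0.06, with an edgeR adjusted p of 0.072, a DESeq2 adjusted p of 0.00030 and a limma-voom adjusted p of 0.048. The gamma-secretase genes Psen2 (0.26 ± 0.10, edgeR adjusted p = 0.26) and Ncstn (0.12 ± 0.05, edgeR adjusted p = 0.30) had smaller differences.

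In the nuclear complex, 5 of 7 genes were above 0. Rbpj, through which Notch acts on DNA, was at 0.19 ± 0.06 (edgeR adjusted p = 0.19). Spen, a corepressor that binds it, was at 0.13 ± 0.06 (edgeR adjusted p = 0.34). Both differences were smaller than those of Jag1 and Notch3. Maml3, a coactivator of the complex, was at 0.35 ± 0.25 (edgeR adjusted p = 0.55), and its groups overlapped. It was at 0.12 without control replicate 1 and 0.62 without control replicate 2.

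Among the glycosyltransferases that tune ligand binding, Lfng had 125 and 177 counts in cKO and 62 and 64 in control libraries. The groups did not overlap, and its log2 fold change was 1.08 ± 0.37 (edgeR adjusted p = 0.21). Poglut1 and Pofut1, which add the first sugars to the receptor, were at 0.13 ± 0.06 and 0.06 ± 0.06 (edgeR adjusted p = 0.37 and 0.67). Mfng had 0 counts in all 4 libraries.

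Of 13 trafficking and ubiquitin ligase genes, 9 were above 0 and 4 below. Neurl1b, a ligase that promotes ligand uptake, had 723 and 832 counts in cKO and 934 and 1031 in control libraries, at -0.51 ± 0.12 (edgeR adjusted p = 0.10, DESeq2 adjusted p = 0.025). Dtx2 was at 0.21 ± 0.09 (edgeR adjusted p = 0.28). Neurl3 had 10 and 15 counts in cKO and 0 in both control libraries (edgeR adjusted p = 0.18). Its cKO mean was 3.66-fold a floor of 3 counts per control library. This ratio leaves out the error of the low cKO counts.

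Hes6, which opposes Hes1 and is not a simple Notch target, had 1195 and 1125 counts in cKO and 1315 and 1529 in control libraries. It was at -0.47 ± 0.10 (edgeR adjusted p = 0.087, DESeq2 adjusted p = 0.018). Hes5 had 0 counts in all libraries, and Hes7 had 6 and 7 in cKO and 0 and 10 in control libraries. All 7 non-canonical ligand genes were above 0, as were 7824 of the 15522 genes tested. The groups of Dlk1, Dlk2 and Egfl7 overlapped, and Egfl7 was at 0.01. Dner had 20 and 15 counts in cKO and 7 and 12 in control libraries. Of the 7 genes, those with the smallest p were Cntn1 (0.95 ± 0.33, edgeR adjusted p = 0.22), Mfap5 (0.82 ± 0.29, edgeR adjusted p = 0.23) and Mfap2 (0.70 ± 0.29, edgeR adjusted p = 0.29). Mfap2 was at 1.07 without cKO replicate 1, past the threshold (edgeR adjusted p = 0.035), and at 0.21 without cKO replicate 2.

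**Figure D4:**
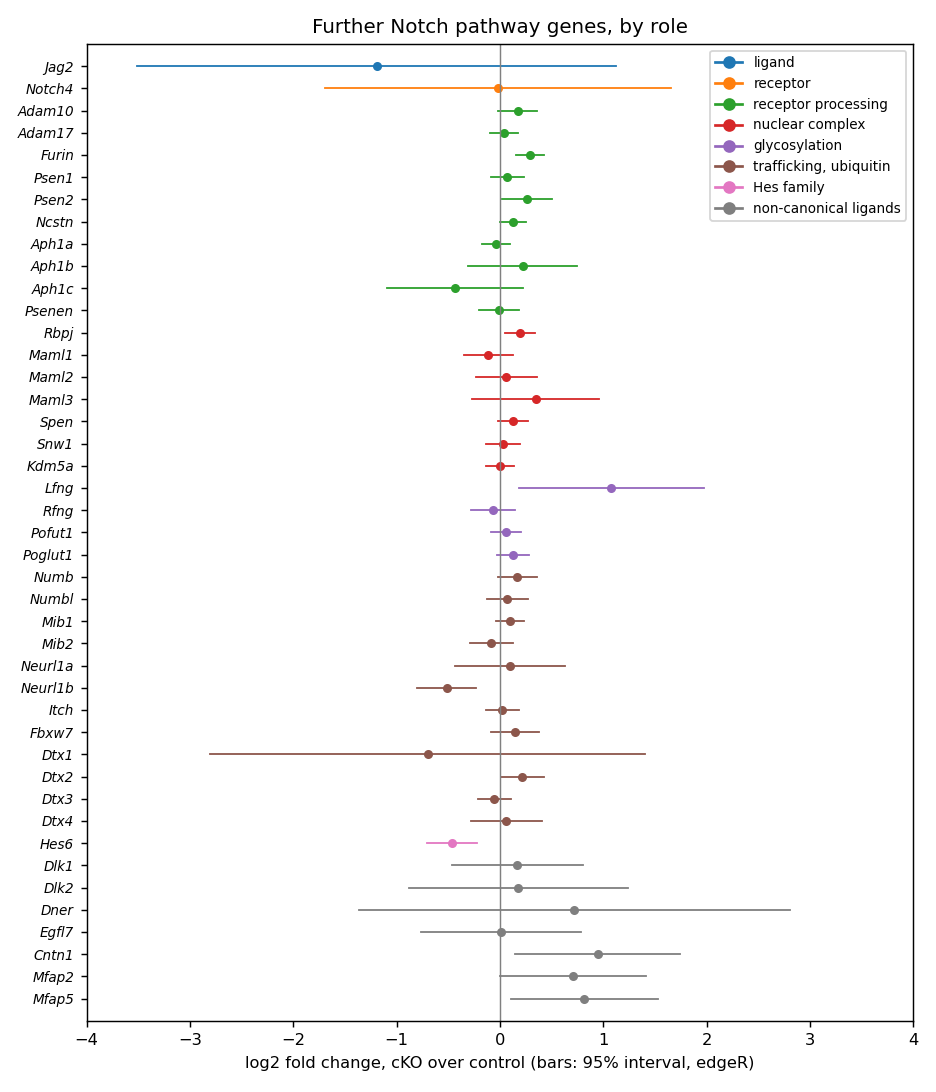
Log2 fold change of cKO over control (horizontal axis) with edgeR 95% intervals for 43 further Notch pathway genes, coloured by role. Neurl3, at 0 counts in controls, is left out. Intervals clear of 0 lie right of it for Furin, Psen2, Rbpj, Lfng, Dtx2, Cntn1 and Mfap5, and left of it for Neurl1b and Hes6.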

How the data were processed

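Libraries were grouped by their titles. The deposited table holds raw counts, unscaled, by gene symbol and library. Tools named in the submitters' processing notes are HISAT2 2.2.1, StringTie 2.1.7, FastQC 0.11.9 and Trim Galore 0.6.7, with the build mm10. The sources used here do not state which tool counted, with which annotation, or how strand and shared reads were treated.

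From these counts, genes were kept by filterByExpr (minimum count 10) in edgeR 4.0.16 (R 4.3.3), scaled by TMM factors and tested for genotype by glmQLFit and glmQLFTest with no covariate, over all 15522 genes tested. Each SE was derived as |log2 fold change| / √F. CPM use TMM-scaled library sizes, and marker sums the library size. DESeq2 1.42.0, limma-voom 3.58.1, library sizes alone, other filters, left-out libraries and a replicate block were alternatives. The fit was also run on simulated counts, whose means, dispersions and library sizes were taken from the fit to these data. Exon lengths and overlaps come from GENCODE M21 on GRCm38.

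The 10 members, the further genes and the markers were chosen with earlier results of these data known. Named were all members and, per further list, up to 3 genes by p-value. Further genes named beyond these, for a count near 0, were chosen after their values were seen. The values of 1 further gene are not reported here, and the counts leave it out.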

Additional observations from a re-analysis of the deposited data

How the results depend on the processing

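No Notch member passed in 10 of the 11 alternatives run, and DESeq2 called 3. Each tested member kept its direction in every alternative that tested it, except Dll1, at -0.037 without control replicate 2. Leaving out 1 library at a time gave log2 fold changes from 0.68 to 0.86 for Notch3, 0.36 to 0.53 for Jag1, 0.10 to 0.40 for Notch1 and -2.13 to -1.56 for Hey1. Because libraries recur between these fits, a kept direction adds no support. Without the control library high in Xist, control replicate 1, Notch3 was at 0.75, Jag1 at 0.53 and Hey1 at -1.99. Of the further genes, library sizes alone called 1, DESeq2 4, limma-voom 1, and left-out libraries 0 to 2. Notch4 was at 0.047 under library-size scaling and between -0.84 and 0.57 with a library left out, at 0.49 without cKO replicate 1. Left-out libraries gave 0.47 to 1.29 for Mfap5, 0.61 to 1.21 for Cntn1, 0.084 to 0.18 for Spen, 0.079 to 0.17 for Poglut1 and 0.023 to 0.098 for Pofut1, and Furin passed without cKO replicate 1 (edgeR adjusted p = 0.048). Over all genes 202 were called, against 1160 by DESeq2, 333 by limma-voom, 324 with the stricter filter (CPM of 1 or more in 2 libraries) and 5 to 782 with a library left out. That count was 5 without control replicate 1, 19 without control replicate 2, 782 without cKO replicate 1 and 159 without cKO replicate 2. With the replicate number as a block it was 23, and no Notch member passed in this replicate block fit. Deviations of same-numbered libraries correlated at -0.12, so crossed numbers were tried after seeing the data, and gave 564 calls and no member. The labels do not say that numbers pair libraries. The causes of these shifts were not tested. Members under the filter, Hey2 and Heyl, had -2.28 and -4.40 with no filter (edgeR unadjusted p = 0.32 and 0.25). The Hey2 value rests on low counts, mostly those of control replicate 2. The Heyl value, with 0 counts in both cKO libraries, rests on the prior count.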
